A study of Mus musculus with 6 samples.

Results

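The mitosis genes examined here are 42 mouse genes of the G2 and M phases of the cell cycle, taken by name from a list and found by symbol in a table of 41388 genes. All 42 had a mean normalized count of at least 10 and so were among the 11379 genes tested. RNA-Seq had been performed on 3 WT and 3 Irf1-/- cultures of T lymphocytes from C57BL/6 mice. All 6 cultures were kept for 2 days with IL-2, IL-4 and TGF-β, which polarise T cells to Th9 cells, the helper subset that makes IL-9, and all 6 also received IFN-γ, at 5 ng/ml per the methods. Irf1 encodes interferon regulatory factor 1, a transcription factor that IFN-γ induces, so the comparison asks how Th9 cells exposed to IFN-γ differ when this gene is disrupted. The labels give T cells of spleen and lymph nodes obtained by magnetic negative selection, while the methods give naive CD4+ T cells activated through CD3 and CD28 from mice of 8 to 12 weeks. The paper describes the 3 samples of a genotype as biologically independent, without saying whether each came from a separate mouse, so the p-values measure the spread between these samples.

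The libraries held between 5639788 and 13348230 reads on genes, and replicate 3 was the largest of each genotype. Irf1 itself had normalized counts of 2968, 2907 and 2659.8 in WT and 1780.2, 1729 and 1476 in Irf1-/- libraries, with a log2 fold change of -0.78 (limma, adjusted p = 7.32e-05), and which part of the gene was deleted is not given in the sources used here, so that this level is no full check of the genotype. WT replicates 1 and 2 held transcripts of Y-linked genes, whereas WT replicate 3 and all 3 Irf1-/- libraries held Xist, although the methods describe sex-matched mice. All 7 CD4+ T cell markers examined were present in every library, with summed normalized counts of 13590 to 13782 in WT and 12741 to 13221 in Irf1-/- cells, and 2 of them, Cd3e and Trac, were called lower, while Cd3d and Lck were not called and had every Irf1-/- value over every WT value. The summed level of 9 myeloid markers was 141 to 292 in WT libraries, and 298, 1098 and 62.6 in Irf1-/- replicates 1, 2 and 3. The only one of them called, Mpeg1, was lower, at 80.5 to 110.6 in WT and 19.8 to 60.9 in Irf1-/- libraries. The summed markers of B cells, CD8+ T cells and dendritic cells did not exceed 46.2 in any library, and those of NK cells and red cells did not exceed 6.01. The part of these marker differences in the results was not tested.

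Cells pass through mitosis by switching on cyclin-dependent kinase 1 (CDK1), which condenses the chromosomes and starts the building of the spindle. Kinetochores then attach the chromosomes to spindle fibres, the spindle checkpoint holds anaphase back until all are attached, and the anaphase-promoting complex finally releases the chromosomes and destroys the cyclins. Activated T cells divide rapidly, and their mitosis genes are transcribed together late in the cycle, through promoters that often hold a cell cycle genes homology region (CHR) and CCAAT boxes, which are read by MuvB complexes with B-MYB and FOXM1 and by NF-Y.

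Of the 42 genes, 34 had a promoter window in RefSeq, from 250 bases before to 50 bases after the transcription start (GRCm38.p6). The remaining 8 were Ccna2, Cdc25c, Foxm1, Aurkb, Incenp, Spc24, Kif20a and Tpx2. A CHR core, searched as TTTGAA or TTCGAA on both strands, was present in the windows of 28 of these 34 genes (82.4%), against 21.7% of the 27025 genes with a window. A CCAAT box, searched as CCAAT on both strands, was present in 26 (76.5%) against 41.1%, and 24 genes had both. The core of the interferon-stimulated response element (ISRE), the element that IRF proteins bind, was searched as GAAANNGAAA and was found in the windows of Bub1b and Spc25 (5.88%) against 3.99% of all genes, the match in Spc25 sharing bases with its CHR core. An E2F core, searched as TTTCCCGC or TTTGGCGC, was found in none of the 34 windows and in 1.80% of all. These matches describe letters only, and no binding was measured in these libraries. The stretches below, from 200 bases before to 30 bases after the start, belong to the 4 genes with a window and a CHR core that had the largest fold changes between the genotypes, and show how differently the elements are arranged within them. CHR cores and CCAAT boxes in either orientation are in capitals.
Top2a (chr11:99024160-99024389, minus strand): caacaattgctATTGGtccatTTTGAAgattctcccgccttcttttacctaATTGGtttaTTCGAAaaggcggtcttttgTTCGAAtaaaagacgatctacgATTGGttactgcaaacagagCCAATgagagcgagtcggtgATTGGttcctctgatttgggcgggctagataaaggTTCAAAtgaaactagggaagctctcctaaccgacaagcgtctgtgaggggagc
Spc25 (chr2:69206184-69206413, minus strand): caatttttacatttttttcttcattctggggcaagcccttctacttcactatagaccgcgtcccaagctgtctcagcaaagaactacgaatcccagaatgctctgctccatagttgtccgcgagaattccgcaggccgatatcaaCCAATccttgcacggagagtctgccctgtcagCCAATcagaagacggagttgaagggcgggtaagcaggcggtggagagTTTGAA
Mki67 (chr7:135716350-135716579, minus strand): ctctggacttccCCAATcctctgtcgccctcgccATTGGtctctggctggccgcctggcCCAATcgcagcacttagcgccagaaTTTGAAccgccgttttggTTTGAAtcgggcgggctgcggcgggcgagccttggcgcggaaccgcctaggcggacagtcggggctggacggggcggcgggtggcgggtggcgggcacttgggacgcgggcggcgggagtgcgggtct
Ect2 (chr3:27153849-27154078, minus strand): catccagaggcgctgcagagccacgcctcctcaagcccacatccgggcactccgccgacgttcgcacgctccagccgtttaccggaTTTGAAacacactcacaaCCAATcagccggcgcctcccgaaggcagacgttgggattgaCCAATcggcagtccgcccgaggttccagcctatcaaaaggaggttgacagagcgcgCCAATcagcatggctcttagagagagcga

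The Top2a stretch held 4 CHR cores and 5 CCAAT boxes, the Mki67 stretch 2 and 3, the Ect2 stretch 1 and 3 and the Spc25 stretch 1 and 2. In the printed Ect2 stretch the start is the upstream one of 2 RefSeq windows. Across the 34 genes, 28 of the 38 CHR cores lay within 50 bases of the transcription start, whereas 38 of the 61 CCAAT boxes lay further upstream. Genes were called lower both with and without a CHR core. Of the 28 genes with a CHR core 8 were called lower and 1 higher in Irf1-/- cells, and of the 6 without it 2 were called lower. Over all tested genes with a window, 14.6% of those with a CHR core and 12.05% of those without it were called lower.

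**Figure D1:**
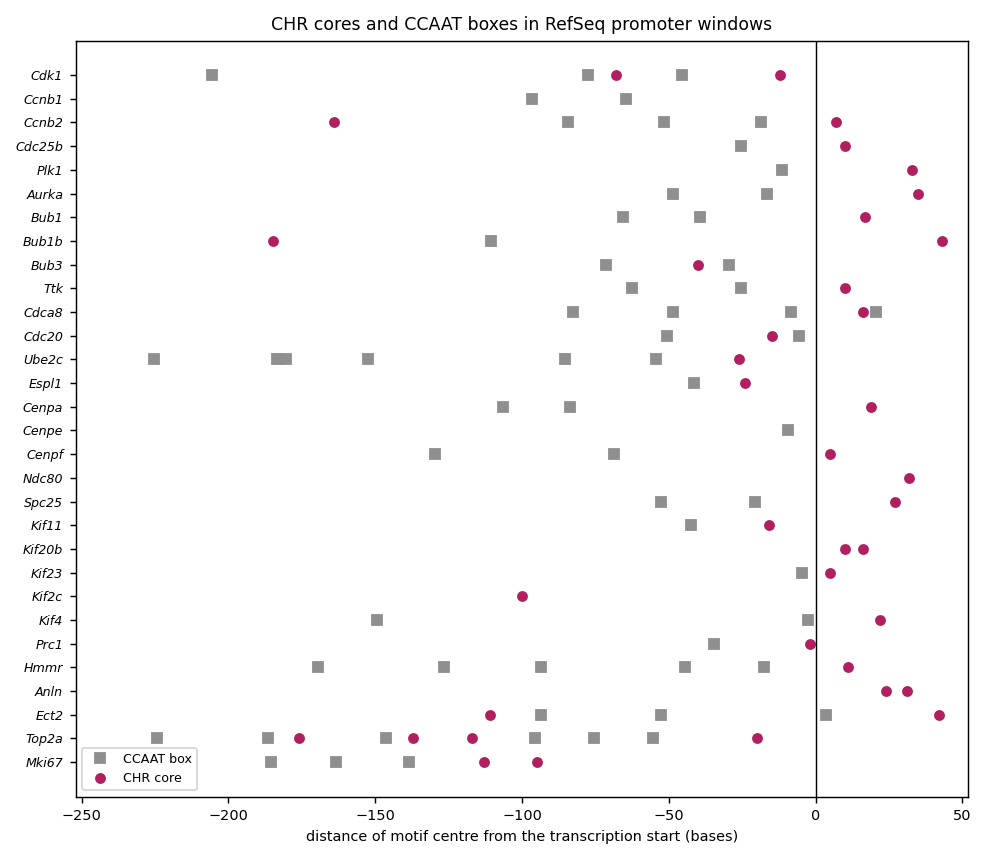
Position of each CHR core (circles) and CCAAT box (squares) in the RefSeq promoter windows of the mitosis genes that hold at least 1 of them, against the distance of its centre from the transcription start in bases. Positions are from the first window of each gene. Most CHR cores sit within 50 bases of the start, and most CCAAT boxes lie further upstream, as does most of the window.

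Transcripts of the mitosis genes were abundant in both genotypes, and more of them were lower than higher in Irf1-/- cells, by small amounts. A gene was called when limma gave it a p below 0.05 after adjustment over all 11379 genes by the Benjamini-Hochberg method. By that rule 13 of the 42 genes (31.0%) were lower in Irf1-/- cells and 1 (2.38%) was higher, while 12.4% of all tested genes were called lower and 11.4% higher. The mean of every member exceeded 100 normalized counts, and among the tested genes at that level 15.2% were called lower and 11.4% higher. The log2 fold change (Irf1-/- minus WT, with 1 added to every normalized count before taking logs) was below 0 in 33 genes and above 0 in 9, with a median of -0.14 against -0.0037 over all tested genes, and it ranged from -0.46 for Top2a to 0.18 for Cenpa. In 22 genes (52.4%) every Irf1-/- value lay under every WT value, which held for 20.9% of all tested genes, and in 1 gene every Irf1-/- value lay over every WT value, against 19.7%. In bulk RNA a smaller share of cells in G2 and M and less transcript per cell cannot be told apart.

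The summed normalized count of the 42 genes was 62693, 63775 and 66417 in the WT libraries and 56082, 55537 and 55626 in the Irf1-/- libraries. The groups did not overlap, and the Irf1-/- mean was 0.867 times the WT mean. As a share of all reads on genes, the sum was 0.787 to 0.809% in WT and 0.701 to 0.712% in Irf1-/- cells. Top2a and Mki67 alone made up 30.3% of the WT sum and were 0.749 times as high in Irf1-/- cells. Without them, in a comparison added after seeing the data, the remaining 40 genes had a ratio of 0.918. Without Irf1-/- replicate 2, the library with the highest myeloid markers, 11 members and 7.87% of all genes were called lower, and the part of those markers in the result was not tested.

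Several differences other than genotype ran through the comparison, in sex-linked transcripts, library size and scaling. In the 4 libraries that held Xist, where WT was represented by replicate 3 alone, 35 of the 42 fold changes were below 0 and 4 genes were called lower, namely Top2a, Mki67, Cenpe and Hmmr, while 3.44% of all genes were called lower and 3.44% higher. This fit assumes that the lone WT library varies like the Irf1-/- ones. When the Y-linked level entered the fit, 15 members were called lower and none higher (1 at an unadjusted p below 0.05 in limma), beside 12.3% and 9.63% of all genes. The 4 smaller libraries alone gave 15 members lower and 3 higher, beside 18.3% and 15.9% of all genes. In these 4, both WT libraries held Y-linked transcripts and both Irf1-/- libraries held Xist, so that sex-linked transcripts and genotype are fully confounded there. Replicate 3 of both genotypes, where both held Xist, gave a median log2 fold change of -0.18 with no test. Over all 6 libraries sex-linked transcripts and genotype are partly confounded. With upper-quartile factors in place of the authors' scaling, 8.96% of all genes were called lower and 15.0% higher, and of the members 9 were called lower and 2 higher, with a median log2 fold change of -0.09 against 0.05 over all genes.

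**Figure D2:**
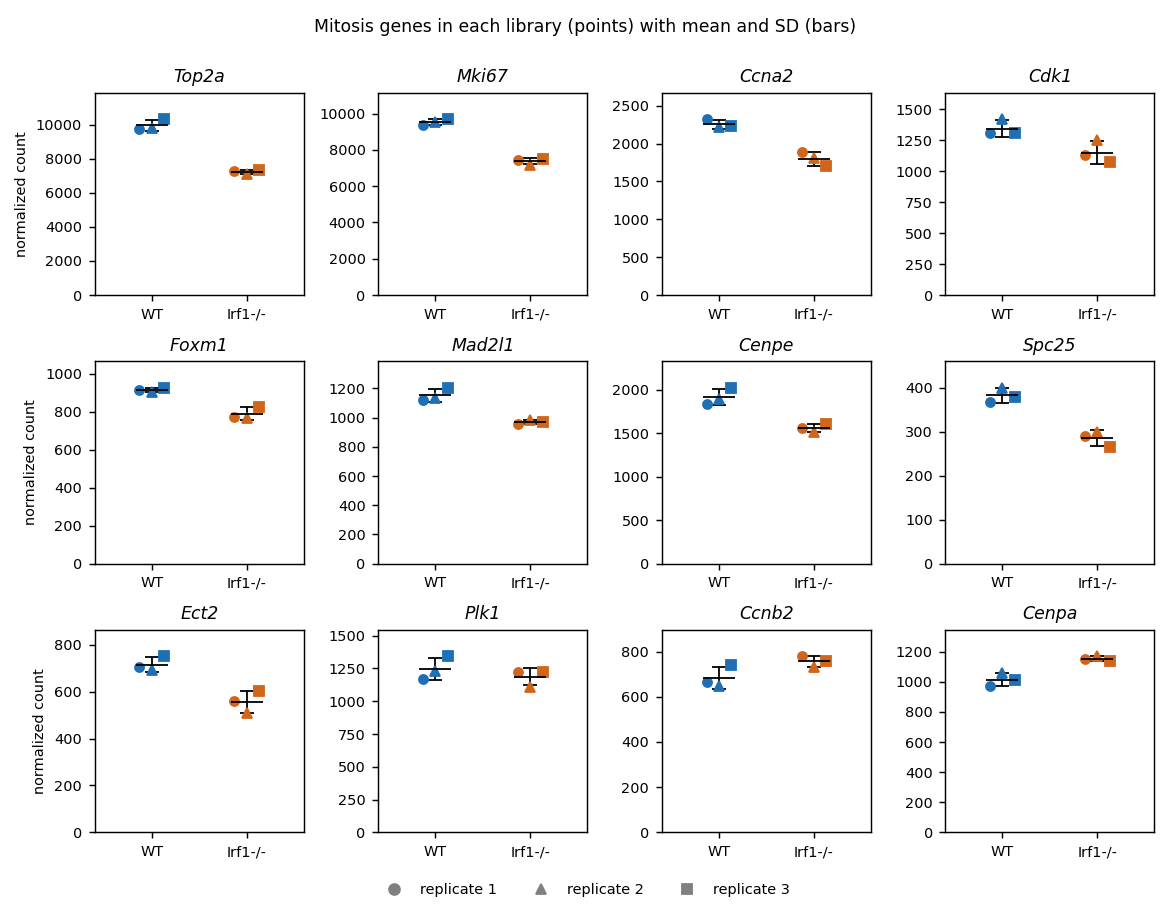
Normalized counts of 12 mitosis genes in the 3 WT and 3 Irf1-/- libraries, with a linear axis from 0, a symbol for each replicate, and the mean and SD as bars. The Irf1-/- values lie under all WT values from Top2a to Ect2, overlap them for Plk1 and Ccnb2, and lie over them for Cenpa.

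The genes that act on chromosome structure had 2 of the 3 largest falls. Top2a, which encodes the topoisomerase that untangles sister chromatids, had normalized counts of 9723, 9832 and 10329.9 in WT and 7299, 7098 and 7321 in Irf1-/- libraries. The Irf1-/- values were close together and all lay under the WT values, a fall of 27.3% (log2 fold change -0.46, SE 0.0480, adjusted p = 0.000117 from limma). For this gene alone the two-sided exact permutation test gave p = 0.1, the smallest that 3 against 3 libraries allow. Mki67, which encodes the Ki-67 protein that coats mitotic chromosomes and serves as a marker of proliferation, had 9359, 9563 and 9699 in WT and 7422, 7192 and 7499 in Irf1-/- libraries. Its fall was 22.7% (log2 fold change -0.37, SE 0.0466, adjusted p = 0.000372). Both genes were called under all 20 alternatives tested, with log2 fold changes of -0.51 to -0.41 for Top2a and -0.40 to -0.29 for Mki67.

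Among CDK1, its cyclins and its activators, 2 of 6 genes (33.3%) fell, beside 15.2% of all tested genes at a mean of at least 100, and the members differed in sign. Ccna2, which encodes cyclin A2 of S phase and early mitosis, had 2322, 2214 and 2228 in WT and 1886, 1806 and 1704 in Irf1-/- libraries. It fell by 20.2% (log2 fold change -0.33, adjusted p = 0.00225), with no overlap between the groups. Cdk1, the mitotic kinase itself, had 1308, 1422 and 1309 in WT and 1129, 1254 and 1072 in Irf1-/- libraries, and the highest Irf1-/- value, in replicate 2, lay just under the lowest WT value (log2 fold change -0.23, adjusted p = 0.0372). Its call was lost in 10 of the 20 alternatives. The B-type cyclins, which drive mitosis with CDK1, were not called over all 6 libraries with the authors' scaling. Ccnb1 had a log2 fold change of -0.13 (95% confidence interval -0.27 to 0.01), and 42.1% of the 50-base stretches of its transcript also occur in other genes, so that its count is uncertain. The labels and the methods give different read lengths, and these shares depend on that length. Ccnb2 had 666, 646 and 740.1 in WT and 778, 732 and 759.9 in Irf1-/- libraries, with a log2 fold change of 0.15 (-0.0047 to 0.30). The phosphatases that activate CDK1 were not called in that fit either, at 0.14 (-0.04 to 0.33) for Cdc25b and 0.04 (-0.22 to 0.30) for Cdc25c, which had the lowest level per kilobase of these 6 genes. Ccnb2 was called higher with upper-quartile factors, without WT replicate 3 and with replicates 1 and 2 only, and Cdc25b without Irf1-/- replicate 3 and with replicates 1 and 2 only. Without WT replicate 3 and with replicates 1 and 2 only, the WT libraries all held Y-linked transcripts and the Irf1-/- libraries all held Xist. In those fits sex-linked transcripts and genotype cannot be told apart.

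Because Ccna2 and Ccnb2 differed in sign, their ratio within each library was examined, a choice made after the values were seen. The count of Ccna2 divided by that of Ccnb2 was 3.49, 3.43 and 3.01 in the WT libraries and 2.42, 2.47 and 2.24 in the Irf1-/- libraries. These ratios do not depend on how the libraries were scaled, and since the pair was picked for its opposite signs they are a description only.

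The kinases of mitotic entry showed no call. Plk1, which encodes polo-like kinase 1, had 1172, 1227 and 1342 in WT and 1224, 1111 and 1227 in Irf1-/- libraries (log2 fold change -0.07, 95% confidence interval -0.22 to 0.08). Aurka, the Aurora kinase of centrosomes and spindle poles, had a log2 fold change of 0.01 (-0.14 to 0.16). Neither passed at an unadjusted p below 0.05 in limma, and edgeR and DESeq2 called neither. Foxm1, a transcription factor of many G2 and M genes, had 914, 902 and 925 in WT and 774, 764 and 826 in Irf1-/- libraries. It fell by 13.7% without overlap (log2 fold change -0.21, adjusted p = 0.0242), and this call was lost in 9 of the 20 alternatives, DESeq2 among them.

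Of the 5 genes of the spindle checkpoint 1 (20.0%) fell, beside 15.2% of all tested genes at a mean of at least 100. Mad2l1, which encodes the checkpoint protein MAD2, had 1121, 1135 and 1204 in WT and 955, 982 and 973 in Irf1-/- libraries, a fall of 15.9% without overlap (log2 fold change -0.25, adjusted p = 0.00966). Bub1b, whose product BUBR1 works with MAD2 to inhibit the anaphase-promoting complex, had 1601, 1667 and 1808 in WT and 1624, 1528 and 1599.6 in Irf1-/- libraries and was not called (log2 fold change -0.09, 95% confidence interval -0.23 to 0.04). The kinase genes Bub1 and Ttk, and Bub3, had log2 fold changes of -0.07, -0.02 and -0.04, none of them called.

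No gene of the chromosomal passenger complex, which corrects faulty attachments, passed the adjusted threshold over the 6 libraries in limma, edgeR or DESeq2 without a further term. Its kinase Aurkb had 1217, 1258 and 1333 in WT and 1059, 1183 and 1188 in Irf1-/- libraries (log2 fold change -0.15, -0.30 to -0.01) and was the only member of the complex with an unadjusted p below 0.05. Incenp, the scaffold, with the highest level of the complex per kilobase, had 2112, 2181 and 2253 in WT and 2098, 2133 and 2059.7 in Irf1-/- libraries, with overlapping values (log2 fold change -0.06, -0.17 to 0.05). Birc5, which encodes survivin, and Cdca8, which encodes borealin, had log2 fold changes of 0.02 and 0.06.

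The genes of anaphase onset were also not called by limma with the authors' scaling and no further term. Cdc20, the activator of the anaphase-promoting complex, had 1991, 1895 and 1875 in WT and 1854, 1842 and 1562 in Irf1-/- libraries, so that the groups did not overlap although replicates 1 and 2 of Irf1-/- lay close to WT replicate 3 (log2 fold change -0.14, -0.29 to 0.02). Of its transcript, 11.4% of the 50-base stretches occur in other genes. Espl1, which encodes separase, the protease that cuts cohesin, fell short of the threshold (log2 fold change -0.18, adjusted p = 0.0571), passed at an unadjusted p below 0.05 and was called by edgeR and by limma with TMM factors but not by DESeq2. Ube2c, the ubiquitin-conjugating enzyme of the complex, had a log2 fold change of -0.04.

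Centromere and kinetochore genes held 3 of the 13 falls and the only rise. Of the 7 genes of this role 42.9% were called lower and 14.3% higher, beside 15.2% and 11.4% of all tested genes at a mean of at least 100. Spc25, a subunit of the NDC80 complex that grips the spindle fibre, had 368, 400.3 and 380.5 in WT and 291, 299.6 and 265 in Irf1-/- libraries. Its values did not overlap and its fall was 25.5% (log2 fold change -0.43, SE 0.0813, adjusted p = 0.00435). The other 3 subunits of the same complex were not called, with log2 fold changes of -0.20 (-0.37 to -0.04) for Nuf2, -0.06 (-0.23 to 0.10) for Ndc80 and 0.01 (-0.15 to 0.18) for Spc24. Within a library the ratio of Spc25 to Spc24, again chosen after the values were seen, was 0.575 to 0.636 in WT and 0.431 to 0.470 in Irf1-/- cells.

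Cenpe, a kinesin that carries chromosomes to the spindle equator, had 1831, 1891 and 2020.5 in WT and 1562, 1507 and 1607 in Irf1-/- libraries (log2 fold change -0.30, adjusted p = 0.00448), and it was called in all 20 alternatives. Cenpf, a large kinetochore protein that peaks in G2 and M, had 1025, 1100.0 and 1009.9 in WT and 857, 883 and 799 in Irf1-/- libraries (log2 fold change -0.30, adjusted p = 0.00684). Both fell without overlap. Cenpa, the histone H3 variant that marks the centromere, went the other way, with 973, 1062 and 1011 in WT and 1152, 1169 and 1136 in Irf1-/- libraries, a rise of 13.5% (log2 fold change 0.18, adjusted p = 0.0388). It is given in full because it was the 1 member that rose, which was known only after its values were seen, and its call was lost in 10 of the 20 alternatives, including DESeq2.

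All 6 mitotic kinesins had fold changes below 0, beside 5755 of the 11379 tested genes. Of these 6 kinesins 3 fell, beside 15.2% of all tested genes at a mean of at least 100. Kif20b, a kinesin of cytokinesis, had 875, 900.4 and 923 in WT and 724, 724 and 745 in Irf1-/- libraries, with little spread within either group (log2 fold change -0.30, adjusted p = 0.00429). Kif11, which pushes the spindle poles apart and had the highest level of the 6 per kilobase, had 2513, 2645 and 2741 in WT and 2228, 2243 and 2421 in Irf1-/- libraries (log2 fold change -0.20, adjusted p = 0.0290). Kif20a, which carries the passenger complex to the midzone, had 923, 976 and 946 in WT and 867, 828 and 723 in Irf1-/- libraries (log2 fold change -0.24, adjusted p = 0.0388), and its exons overlap those of Cdc23 on the opposite strand. The calls of Kif11 and Kif20a were lost in 8 and 11 of the 20 alternatives. Kif4, a chromosome-bound kinesin, and Kif2c, which shortens spindle fibres at the kinetochore, at -0.16 and -0.15, were not called although their groups did not overlap, and Kif23, of the central spindle, was at -0.02 with overlapping groups. Kif4 is X-linked.

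With all 6 libraries and no further term in the limma fit, no spindle or midzone protein was called, and 2 of the 4 had an unadjusted p below 0.05. Tpx2, a spindle assembly factor that activates Aurora A, had 2054, 2052 and 2334 in WT and 2097, 2108 and 2359 in Irf1-/- libraries, and replicate 3 was the highest of both genotypes (log2 fold change 0.03, -0.12 to 0.18). Nusap1, which bundles spindle fibres, missed the threshold narrowly (log2 fold change -0.19, adjusted p = 0.0526) and was called by edgeR but not by DESeq2, while Hmmr, a spindle pole protein, had -0.24 (adjusted p = 0.0598). Prc1, which crosslinks the midzone, was at -0.09.

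Of the cytokinesis genes, Ect2, the exchange factor that activates RhoA to set up the cleavage furrow, had 704, 694 and 751 in WT and 559, 508 and 603 in Irf1-/- libraries. It fell by 22.3% without overlap (log2 fold change -0.37, SE 0.0762, adjusted p = 0.00661). Anln, which encodes the furrow protein anillin, had a log2 fold change of -0.21 with a wide interval (-0.45 to 0.03) and was not called.

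**Figure D3:**
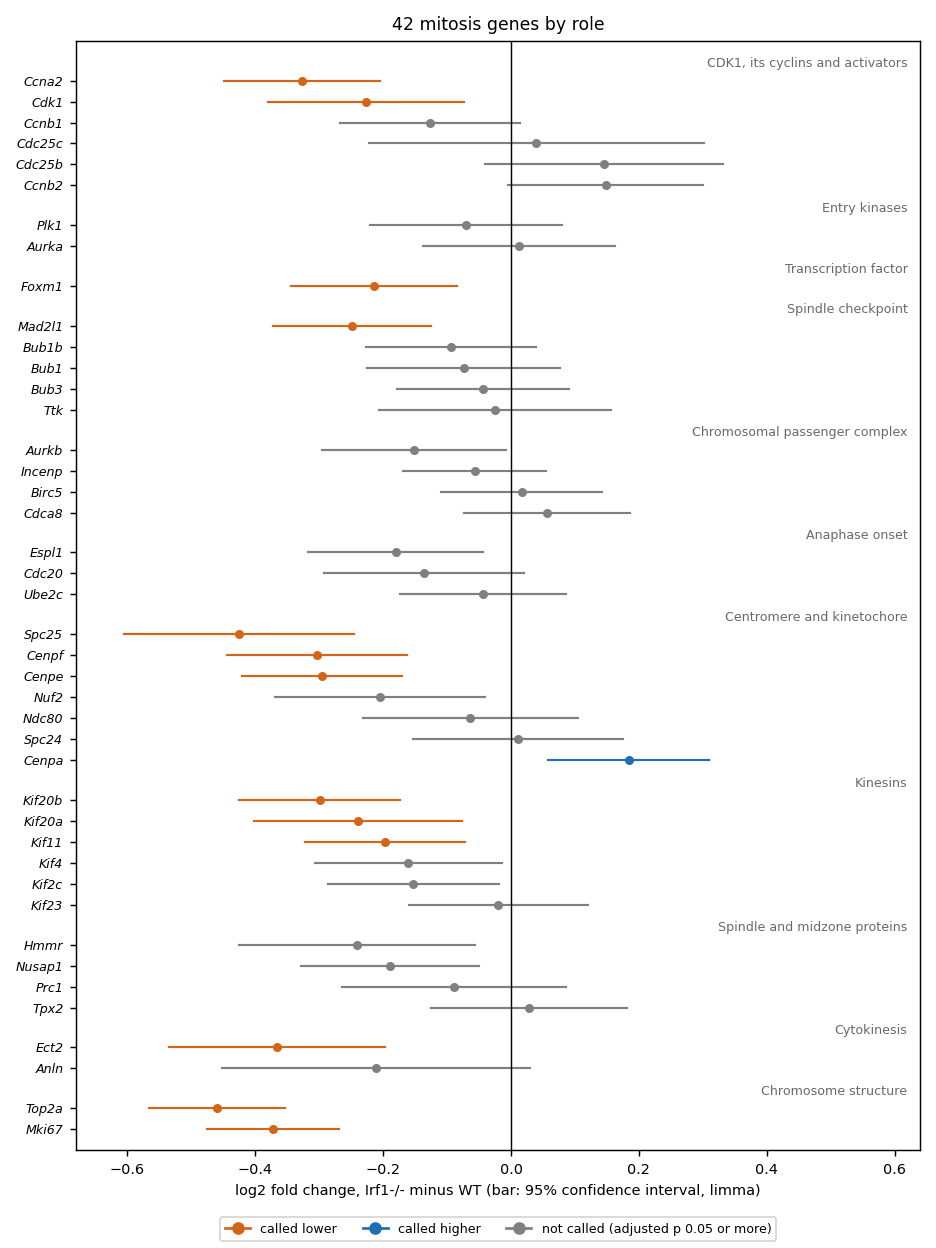
Log2 fold change (Irf1-/- minus WT) of each of the 42 mitosis genes, grouped by role, with 95% confidence intervals from limma. The 13 genes called lower are spread over 7 of the 11 roles, and Cenpa alone was called higher.

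Per kilobase of exon, the order of the members was close in both genotypes. In WT cells Top2a was the highest, at 1105 normalized counts per kilobase, followed by Cdc20 at 1028 and Mki67 at 948. In Irf1-/- cells Cdc20 stood first at 938, ahead of Top2a at 803 and Mki67 at 733. The lowest were Cdc25c and Anln, at 38.2 and 39.98 in WT and 39.5 and 34.4 in Irf1-/- cells. Exon overlap on the opposite strand, with a kit that does not mark strand, adds to the uncertainty of Ccna2, Cdc25b, Cdca8, Cdc20, Kif20a, Kif4, Nusap1 and Prc1.

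Other genes of the division cycle were read from 10 companion lists. The core of the anaphase-promoting complex and its regulators had 2 genes lower, Fbxo5 and Anapc1, and 1 higher, Anapc11, of 17. Condensin, which compacts chromosomes, had 3 lower of 8, with Ncapg2 falling by 24.8% (log2 fold change -0.41, adjusted p = 0.00141), and its ATPases Smc2 and Smc4 by 18.4% and 11.8%. Cohesin and its regulators, which hold sister chromatids together, had 5 lower of 14, among them Stag2 (log2 fold change -0.45, X-linked), Stag1 (-0.36) and Pds5a (-0.30). Other centromere and kinetochore genes had 3 lower of 31, namely Cenpo, Knl1 and Mis12, and other mitotic kinesins and midbody genes had 2 lower of 19, Kif15 and Ckap5. The shares called lower in the anaphase-promoting complex list, at 11.8%, and in these last lists, at 9.68% and 10.5%, were near the 12.4% of all tested genes.

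Regulators around the G2/M boundary had 6 lower of 16 (37.5%), beside the 12.4% of all tested genes. The largest was Gtse1, a microtubule-binding protein of S and G2 phase, with 1015, 1046 and 877 in WT and 624, 655 and 575 in Irf1-/- libraries, a fall of 36.9% (log2 fold change -0.66, adjusted p = 0.000314). The kinase Melk and the phosphatase Cdc25a, which activates CDKs, also fell, by 21.2% and 18.4%. The list of MuvB, DREAM and E2F factors had 6 lower of 19 (31.6%), led by the repressors E2f7 and E2f8. E2f7 had 178, 192 and 177 in WT and 106, 111 and 82.4 in Irf1-/- libraries (log2 fold change -0.87, adjusted p = 0.00115), and E2f8 fell by 29.0%.

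Genes of G1 and S phase were also among those called. Of the 9 cyclins and CDKs of these phases, 3 (33.3%) were lower and 1 (11.1%), Ccnd3, was higher, beside 12.4% and 11.4% of all tested genes. Cdk6, a G1 kinase, had 683, 786 and 713 in WT and 529, 466 and 303 in Irf1-/- libraries, and these values did not overlap (log2 fold change -0.78, adjusted p = 0.00694). Ccne2, which encodes cyclin E2 of the G1/S transition, had 681, 650.4 and 685 in WT and 504, 434 and 428 in Irf1-/- libraries (log2 fold change -0.56, adjusted p = 0.000643). Of 42 DNA replication genes 17 (40.5%) were lower, including Fen1 (log2 fold change -0.42) and the X-linked Pola1 (-0.33), with a median of -0.17 beside -0.14 for the mitosis genes. None of the condensin, cohesin, kinetochore, kinesin, G2/M, MuvB or replication lists had a gene called higher in limma, edgeR or DESeq2, and 1 gene over all of them had an unadjusted p below 0.05 in that direction.

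CDK inhibitors and arrest genes, which slow the cycle, held the largest changes of the 10 lists, with 6 lower (46.2%) and 2 higher (15.4%) of the 13 tested, beside 12.4% and 11.4% of all tested genes. Ccng1, the p53 target cyclin G1, had 3090.0, 3024 and 2649 in WT and 1375, 1315 and 1205 in Irf1-/- libraries (log2 fold change -1.17, adjusted p = 3.59e-06). Cdkn1a, which encodes the CDK inhibitor p21, had 1056, 1169.7 and 855 in WT and 617, 614 and 505 in Irf1-/- libraries (log2 fold change -0.82, adjusted p = 0.000749). Both fell without overlap. Gadd45g, a stress-induced arrest gene, rose, with 96.1, 125 and 116 in WT and 153, 193 and 228 in Irf1-/- libraries (log2 fold change 0.75, adjusted p = 0.00662), as did Cdkn2d, which encodes the inhibitor p19 (log2 fold change 0.36).

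**Figure D4:**
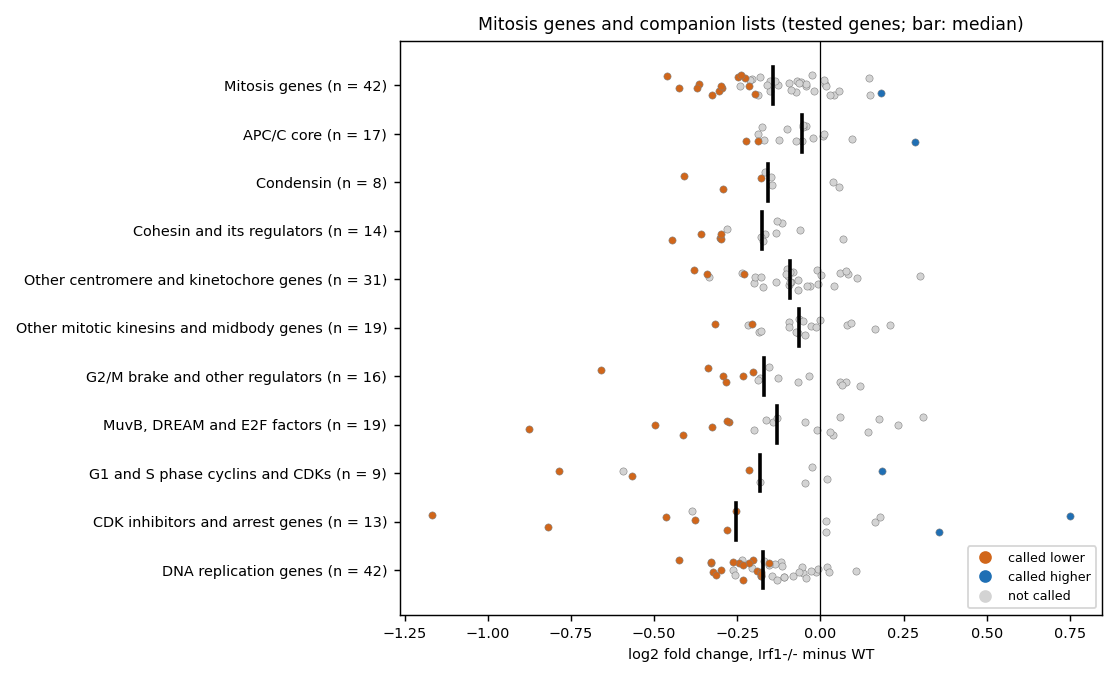
Log2 fold change (Irf1-/- minus WT) of each tested gene in the mitosis genes and 10 companion lists, with the median of each list as a bar and called genes in colour. The median of the mitosis genes is -0.14 and that of the DNA replication genes -0.17, and the inhibitor list spans the widest range.

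Fold changes of the mitosis genes varied with the GC content and length of their transcripts. Across the 42 genes, Spearman's rho between the log2 fold change and the GC content of the longest transcript was 0.45, and with its length -0.55, against 0.27 and -0.18 over all tested genes with a transcript. These are descriptions over genes that share the same 6 libraries. Of the 21 members of lower GC content, from 39.4 to 46.6%, 10 were called lower, beside 18.9% called lower and 5.87% called higher among the tested genes in that range. Of the 21 of higher GC content, from 47.4 to 56.1%, 3 were called lower and 1 higher, beside 10.3% called lower and 12.5% called higher in that range. The part of GC content and length in the falls was not tested.

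**Figure D5:**
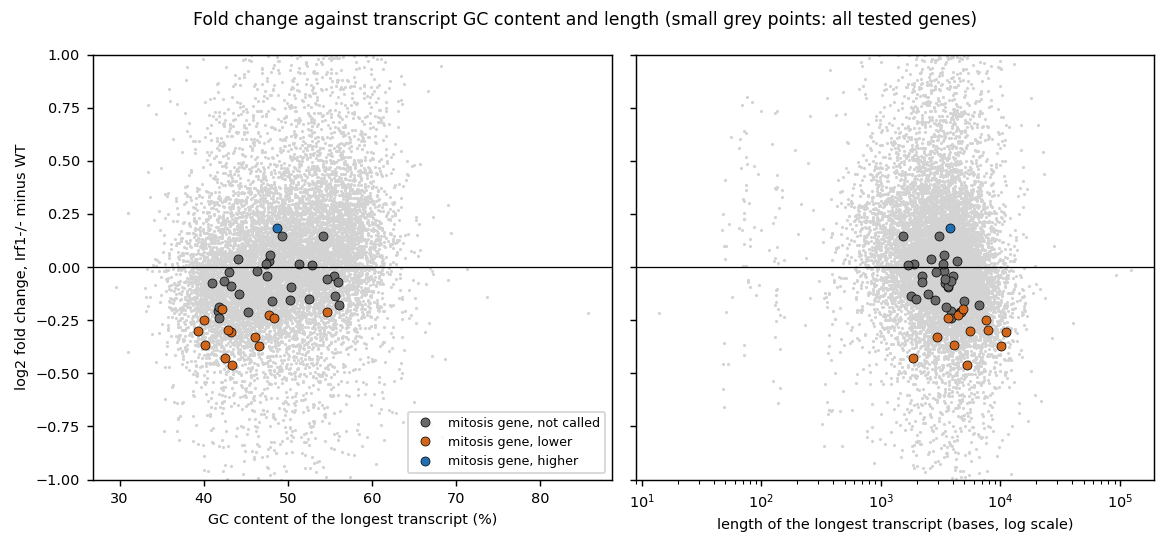
Log2 fold change of the mitosis genes (large points, coloured by call) and of all tested genes (small grey points) against the GC content and, on a log axis, the length of the longest transcript. The vertical axis covers -1 to 1, so that 491 other genes lie outside it, and called members sit mostly at low GC content and greater length.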

How the data were processed

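RNA-Seq libraries of 3 WT and 3 Irf1-/- Th9 cultures were compared. Per the submitters' processing notes and the methods, the authors aligned reads to GRCm38 with STAR 2.4.0b, used featureCounts with the genes of Ensembl 76 and normalized with DESeq2 1.12.3. The deposited signal is a normalized count, that is, the authors' read count over the size factor of the library. In all 6 columns 100% of the non-zero values were whole multiples of 1 step (tolerance 0.01), so that the reads could be recovered. How strand and reads matching several genes were treated is not given in the sources used here.

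Genotypes were compared in R 4.3.3 with limma 3.58.1 (eBayes with a trend). Values were log2 transformed after adding 1, the 11379 genes whose mean reached 10 were tested, and p-values were adjusted by the Benjamini-Hochberg method, with a threshold of 0.05. Because the unit is a normalized count, limma replaced the count model of the methods, and the alternatives were DESeq2 1.42.0 or edgeR 4.0.16 run on recovered reads, other pseudocounts, filters and scalings, a fit without the trend, the replicate number as a block, each library left out, replicates 1 and 2 or 3 only, the Y-linked level in the model and the libraries with Xist only. The limma procedure was also run on simulated counts, with changes larger than those of any member. That run cannot show how it performs on changes as small as theirs, and no result here rests on it. The main fit did not pair the samples by replicate number. In their deviations from the genotype mean, same-numbered samples correlated at 0.092, 0.27 and 0.32 and the other pairs at -0.31 to 0.084. Each sample thus correlated best with its own number, and the fit with the number as a block is among the alternatives. Symbols, exon lengths and transcripts came from GENCODE M21 and promoters from RefSeq. The members and lists were chosen with earlier results of these data known. Libraries of 5639788 to 13348230 reads gave a median SE of 0.064 over the members on the log2 scale.

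Named with values in each library were called members, at most the 12 with the largest fold changes, and the member of each of 11 roles with the highest mean. Ccnb2, Aurkb and Cenpa were given with such values outside this rule. In the companion lists at most 3 called genes per direction were named, by size. A gene that this rule would name is not reported here. Printed promoters were those of at most 4 members with a CHR core, by size of the fold change.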

Additional observations from a re-analysis of the deposited data

How the results depend on the processing

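Over the 20 alternatives with a test, Top2a, Mki67 and Cenpe were called lower in all, and Spc25, Ect2, Ccna2, Cenpf, Kif20b and Mad2l1 lost the call only with the libraries that hold Xist. Members called lower went from 13 to 22 with the replicate block, which added Anln, Aurkb, Cdc20, Espl1, Hmmr, Kif2c, Kif4, Nuf2 and Nusap1, and to 4 with the Xist libraries, and were 9 to 12 with 1 library left out. In the block fit every called gene of the 13 remained, each sample correlated best with its own number, and all genes called lower numbered 2116. All genes called lower were 807 without the trend, 826 to 1472 with 1 library left out (826, 829 and 895 without WT replicate 2, WT replicate 1 and Irf1-/- replicate 2) and 392 with the Xist libraries. All genes called higher were 799 to 1372 with 1 library left out and 392 with the Xist libraries. Members called higher were 0 without a filter, without the trend, with DESeq2 and with the Y-linked covariate (in each 1 at an unadjusted p below 0.05), 0 with the Xist libraries (also 0 unadjusted, limma), 2 with upper-quartile factors, 3 with replicates 1 and 2 only, and 0 to 2 with 1 library left out. The median log2 fold change of the members was -0.10 with quantile normalization, -0.091 with upper-quartile factors, -0.18 in replicate 3 only and -0.19 in the Xist libraries. The ratio of the summed level was 0.899 with upper-quartile factors, 0.838 in replicate 3 only, 0.839 in the Xist libraries and 0.918 without Top2a and Mki67, added after seeing the data. Incenp turned to 0.0041 with quantile normalization, and Tpx2, not called in any fit, to -0.078 with the Y-linked covariate and -0.095 in the Xist libraries, and ranged from -0.028 to 0.090 with 1 library left out. The causes were not tested.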
